A study of Mus musculus with 9 samples.

Results

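Mitosis and spindle genes encode the machinery that divides a cell, from the cyclins and kinases that start mitosis to the motors, kinetochore proteins and condensins that move and pack chromosomes. A list of 52 such genes, matched by gene symbol, was followed in M-MDSCs, the monocytic kind of myeloid-derived suppressor cell, which gathers in tumours and restrains T cells. All 52 were found among the 54532 genes of the deposited FPKM table and among the 9877 genes of the deposited count table, and their counts were the same in both. The cells were sorted from MC38 tumours, grown from a mouse colon carcinoma line, and their poly-A RNA was sequenced in 9 libraries. There were 3 libraries each from LILRB4+/+ SCG2-/- mice, from LILRB4+/+ mice and from WT mice, all bearing MC38 tumours. LILRB4 is an inhibitory receptor of myeloid cells and SCG2 is secretogranin II, a secreted protein. The nature of the LILRB4+/+ allele, what drives it, age and sorting gate are not stated in the labels. Libraries are not tied to animals there, so the spread behind each p-value may be technical.

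Entry into mitosis is driven by the kinase CDK1 with cyclins A and B, helped by the Aurora and Polo-like kinases. The spindle assembly checkpoint then holds the anaphase-promoting complex back until every kinetochore is attached, after which CDC20 and the ubiquitin enzyme UBE2C help to mark cyclin B and securin for destruction. Most of these genes are transcribed only late in the cell cycle, so that their mRNA in bulk tissue is widely read as a mark of dividing cells. In bulk libraries a smaller share of dividing cells and less of these mRNAs in each dividing cell cannot be told apart.

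Deposited counts summed to between 14501163 and 27219202 per library. The 9 monocyte markers were present in every library and summed to 2621 to 4402 CPM (counts recovered from FPKM, scaled to each library's sum) in LILRB4+/+ SCG2-/- libraries, 4044 to 6061 in LILRB4+/+ libraries and 2723 to 5697 in WT libraries. They did not move together. Cd14 averaged 1157 FPKM in LILRB4+/+ SCG2-/-, 2274 in LILRB4+/+ and 1651 in WT libraries. Ly6c2 averaged 33.4 FPKM in LILRB4+/+ SCG2-/-, 49.6 in LILRB4+/+ and 67.9 in WT libraries. Lyz2 averaged 481.3 FPKM in LILRB4+/+ SCG2-/-, 15.6 in LILRB4+/+ and 66.6 in WT libraries, with single libraries between 11.4 and 849.3 FPKM. Of 9 epithelial markers of colon carcinoma, 7 had a mean under 1 CPM, while Cdh1 stood at 16.3 to 43.9 FPKM, and the 9 summed to 81.3 to 192.1 CPM. The 15 T and NK cell markers summed to 560.1 to 1011 CPM in LILRB4+/+ SCG2-/- libraries, 144.9 to 923.7 in LILRB4+/+ libraries and 156.3 to 641.2 in WT libraries, none of them at 0 throughout. The 9 fibroblast markers summed to 2197 to 3155 CPM in LILRB4+/+ SCG2-/- libraries, 1494 to 2115 in LILRB4+/+ libraries and 1846 to 2974 in WT libraries. The 8 macrophage markers summed to 829.1 to 1400 CPM in LILRB4+/+ SCG2-/-, 1106 to 2103 in LILRB4+/+ and 1317 to 1842 in WT libraries. The 13 neutrophil markers summed to 66.8 to 77.0, 102.4 to 225.2 and 82.4 to 112.6 CPM in the same order. Over all libraries, dendritic cell markers summed to 200 to 250.7 CPM. Endothelial markers summed to 49.3 to 118.2 CPM and B cell markers to 1.53 to 15.7 CPM. Fibroblasts and T cells can divide, and the part of any of these cell types in the levels below was not tested.

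Many mitotic genes are known to be switched off outside late cell cycle by the DREAM repressor complex, which reads the CHR element, and to be activated through CCAAT boxes bound by NF-Y. Promoters from RefSeq (GRCm38.p6), spanning 250 bases before to 50 after each annotated start, were held for 45 of the 52 genes. The CHR letters TTTGAA or TTCGAA and the letters CCAAT were searched on both strands, and matches that share letters were counted for each. The stretches shown run from 150 bases before to 50 after the start, with matches in capitals. They belong to the first 7 genes, by p-value in the comparison of LILRB4+/+ with WT, among those below that passed its test and had a promoter in the table.
Aurka (chr2:172370521-172370720, minus strand): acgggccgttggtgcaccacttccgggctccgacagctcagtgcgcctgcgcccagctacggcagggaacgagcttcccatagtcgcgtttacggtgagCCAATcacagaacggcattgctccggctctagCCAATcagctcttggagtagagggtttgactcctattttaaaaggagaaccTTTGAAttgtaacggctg
Bub1 (chr2:127831810-127832009, minus strand): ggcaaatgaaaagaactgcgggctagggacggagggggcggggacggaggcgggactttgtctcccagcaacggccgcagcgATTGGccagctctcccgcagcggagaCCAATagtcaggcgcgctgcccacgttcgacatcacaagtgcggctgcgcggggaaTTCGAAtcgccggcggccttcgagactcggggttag
Kif2c (chr4:117178723-117178922, minus strand): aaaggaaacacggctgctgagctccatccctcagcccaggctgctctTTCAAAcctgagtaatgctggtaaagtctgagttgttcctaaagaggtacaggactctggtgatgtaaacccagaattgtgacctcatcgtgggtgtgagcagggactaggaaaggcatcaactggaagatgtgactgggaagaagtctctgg
Plk1 (chr7:122159285-122159484, plus strand): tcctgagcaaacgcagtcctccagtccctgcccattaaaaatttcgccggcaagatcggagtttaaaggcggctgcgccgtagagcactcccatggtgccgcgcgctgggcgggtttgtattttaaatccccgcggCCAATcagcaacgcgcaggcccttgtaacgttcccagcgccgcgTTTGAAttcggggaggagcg
Depdc1a (chr3:159495283-159495482, plus strand): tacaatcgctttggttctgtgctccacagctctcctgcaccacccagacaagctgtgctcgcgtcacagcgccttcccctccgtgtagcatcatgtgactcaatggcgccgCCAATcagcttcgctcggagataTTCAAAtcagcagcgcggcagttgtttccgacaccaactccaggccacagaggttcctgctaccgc
Ckap2 (chr8:22185770-22185969, minus strand): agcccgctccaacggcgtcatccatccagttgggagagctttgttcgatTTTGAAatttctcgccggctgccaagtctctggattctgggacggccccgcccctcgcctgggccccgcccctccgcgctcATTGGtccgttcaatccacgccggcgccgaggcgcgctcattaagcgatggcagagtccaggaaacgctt
Ube2c (chr2:164769779-164769978, plus strand): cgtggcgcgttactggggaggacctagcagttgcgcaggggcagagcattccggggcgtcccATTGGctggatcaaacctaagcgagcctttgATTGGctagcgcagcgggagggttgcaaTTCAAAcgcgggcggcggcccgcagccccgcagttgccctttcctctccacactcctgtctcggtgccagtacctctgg
CHR letters stand within 50 bases of the start in 5 of these 7 stretches. In Kif2c and Ckap2 they lie farther upstream, and the Kif2c stretch has no CCAAT. The RefSeq start used for Kif2c lies 3867 bases inside the gene as counted, so the stretch may not be its main promoter. The starts of the other 6 lie within 35 bases of the counted gene's 5′ end. Over the 45 genes 40 had a start within 200 bases of that end.

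CHR letters were common in the promoters of the mitosis and spindle genes. They were found in 36 of 45 genes (80%), against 21.7% of all 27025 genes with a promoter and 16.3% of the 7851 among them that were tested for expression. Within 50 bases of the start they were found in 32 of the 45 genes (71.1%), against 6.12% of all genes and 4.47% of those tested. CCAAT was found in 32 of 45 genes (71.1%), against 41.1% of all genes, and both motifs in 30 genes (66.7%), against 8.61%. The matches below were counted over 47 promoters. Prc1 and Ect2 entered with overlapping promoters, so their matches were counted once for each promoter. Of 54 CHR matches, 38 began no farther than 30 bases before the start. Of 77 CCAAT matches, 50 began within the 100 bases before it. The list was drawn up for function and with earlier results known, and a match is only a description of letters.

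**Figure D1:**
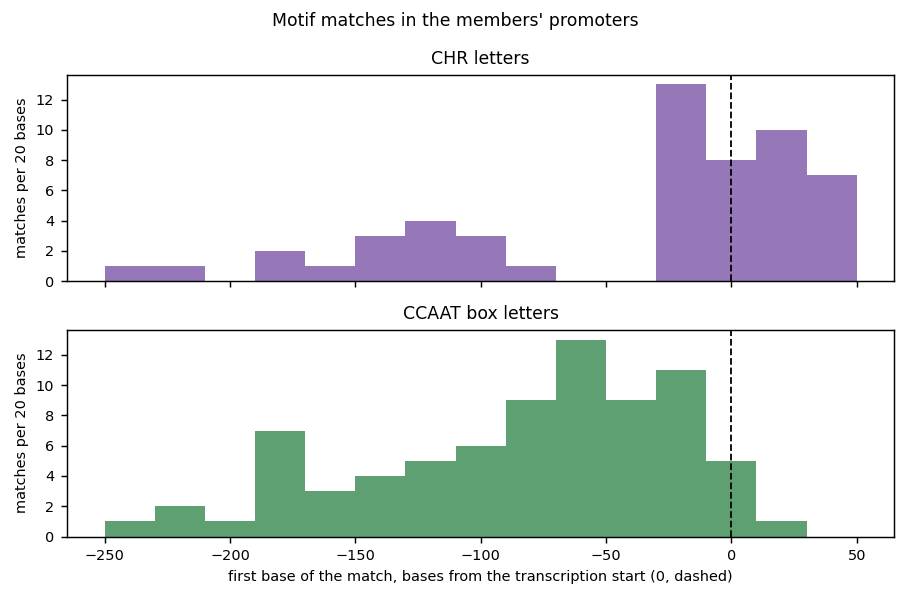
Number of motif matches per 20 bases in 47 promoters of 45 mitosis and spindle genes, by distance of the first base of the match from the annotated transcription start (dashed line). Of 54 matches to the CHR letters, 38 begin from 30 bases before the start onwards, while 50 of 77 CCAAT matches begin within the 100 bases before it. Matches of Prc1 and Ect2, whose promoters overlap, are counted for each promoter.

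Levels per length placed the 52 genes in the middle of the genes tested. Their mean FPKM over 9 libraries ran between 2.40 for Cenpf and 41.2 for Smc4, with a median of 8.57 FPKM, against 8.72 FPKM over the 9877 genes. Of the 52, 26 lay above that value. After Smc4 came Cdc20 at 40.4 FPKM, Top2a at 34.0 FPKM, Ube2c at 25.2 FPKM and Ccnb2 at 23.8 FPKM.

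The first question is how LILRB4+/+ cells differ from WT cells. Mitosis and spindle genes were mostly lower in LILRB4+/+ libraries. Of the 52, 12 fell and 0 rose by edgeR's quasi-likelihood test at an adjusted p under 0.05, against 0.516% of the 9877 genes tested that fell and 1.73% that rose. Log2 fold changes were below 0 for 50 of the 52, against 52% of all genes, and their median was -0.64, against -0.02 over all genes. Every LILRB4+/+ library lay below every WT library for 38 of the 52, against 15.5% of all genes tested, and above for 1, Ckap2l, against 11% of all genes. Before adjustment, 42 were lower and 1 was higher at p under 0.05, against 11.3% of all genes in each direction.

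**Figure D2:**
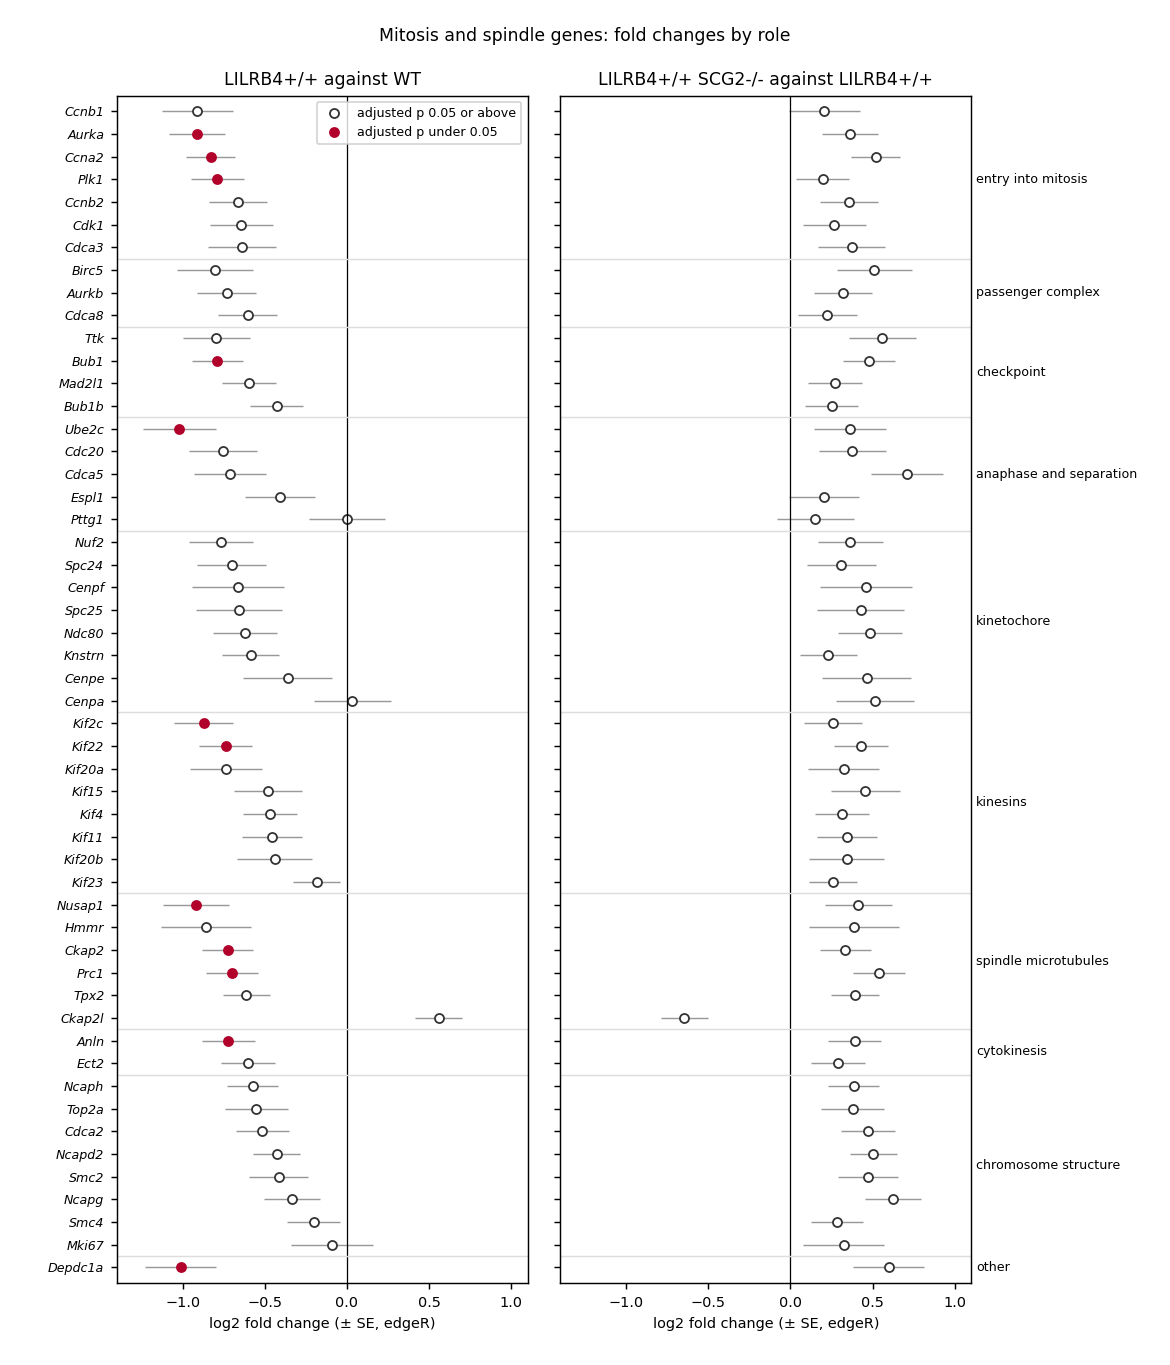
Log2 fold changes (points, with SE) of the 52 genes by role, for LILRB4+/+ against WT (left) and LILRB4+/+ SCG2-/- against LILRB4+/+ (right). SE is derived from edgeR's F statistic. Filled points mark the 12 genes with an edgeR adjusted p under 0.05, all on the left and all below 0, while Ckap2l stands on the other side of 0 from most genes in both panels.

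Of the 7 genes for entry into mitosis 3 fell, against 0.516% of all genes tested. In all 7 every LILRB4+/+ library lay below every WT library, against 15.5% of all genes. The same shares of all genes apply to each role below. Ccna2, which encodes cyclin A2, stood at 81.2, 70.3 and 82.0 CPM of deposited counts (scaled by TMM factors, as for all single genes below) in LILRB4+/+ SCG2-/- replicates 1 to 3. It stood at 46.4, 59.5 and 56.8 CPM in LILRB4+/+ libraries and at 84.0, 104 and 102 CPM in WT libraries. All 3 LILRB4+/+ values lie below all others, and those of LILRB4+/+ SCG2-/- lie between. Its log2 fold change in LILRB4+/+ against WT was -0.83 (SE 0.15, edgeR adjusted p = 0.0277). Ccna2 overlaps Exosc9 on the other strand, as Nusap1 overlaps Oip5 and Prc1 overlaps Rccd1. Cdc20, high by FPKM above, overlaps Elovl1 on the other strand, which averaged 24.65 FPKM. Whether counting told the strands apart is not stated, so the counts of these genes are uncertain to that extent.

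Aurka, the mitotic kinase that matures centrosomes, stood at 25.7, 25.1 and 26.2 CPM in LILRB4+/+ SCG2-/-, 15.6, 22.2 and 22.0 CPM in LILRB4+/+ and 32.4, 39.6 and 40.5 CPM in WT libraries. These 3 groups do not overlap. The log2 fold change of Aurka in LILRB4+/+ against WT was -0.91 (SE 0.17, edgeR adjusted p = 0.0309).

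Plk1, the Polo-like kinase of mitotic entry and exit, stood at 26.0, 24.8 and 28.0 CPM in LILRB4+/+ SCG2-/-, 19.7, 23.2 and 25.8 CPM in LILRB4+/+ and 33.3, 42.8 and 42.9 CPM in WT libraries. WT lies above both other groups, which overlap each other. It fell by 0.79 on the log2 scale in LILRB4+/+ against WT (SE 0.16, edgeR adjusted p = 0.0363). Ccnb1, cyclin B1, had a log2 fold change as far from 0 as that of Aurka, at -0.91 (SE 0.22), and did not pass (edgeR adjusted p = 0.0536). Its WT values were 36.6, 63.0 and 61.8 CPM, a wider spread than that of Aurka. Ccnb2 (cyclin B2, the highest of this role by FPKM), Cdk1 and Cdca3, a trigger of mitotic entry, were not past the threshold either, at -0.66, -0.64 and -0.64 (edgeR adjusted p = 0.0709, 0.0937 and 0.109).

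Of the chromosomal passenger complex, which corrects chromosome attachments, 0 of 3 genes passed. Aurkb, its kinase, averaged 31.9 ± 6.24 CPM in LILRB4+/+ and 53.0 ± 7.87 CPM in WT libraries (SD, n = 3 each; log2 fold change -0.73, edgeR adjusted p = 0.0562). The survivin gene Birc5 and the borealin gene Cdca8 stood at -0.80 and -0.60. In all 3 genes every LILRB4+/+ library lay below every WT library, against 15.5% of all genes.

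Among 4 spindle assembly checkpoint genes Bub1, a kinase of the kinetochore, fell. It stood at 36.0, 38.6 and 40.2 CPM in LILRB4+/+ SCG2-/-, 23.6, 30.1 and 28.5 CPM in LILRB4+/+ and 39.7, 49.0 and 53.4 CPM in WT libraries (LILRB4+/+ against WT log2 fold change -0.79, SE 0.16, edgeR adjusted p = 0.0349). The LILRB4+/+ libraries are the 3 lowest, while LILRB4+/+ SCG2-/- replicate 3 overlaps WT. Ttk, which encodes the checkpoint kinase MPS1, Mad2l1, which encodes the CDC20 inhibitor MAD2, and Bub1b, which encodes BUBR1, did not pass. Their log2 fold changes were -0.79, -0.60 and -0.43, and the last, from the gene highest by FPKM in this role, was the nearest to 0 of the 4.

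Of 5 genes of anaphase and sister chromatid separation Ube2c fell, and it had the largest log2 fold change below 0 of all 52. It stood at 55.2, 62.1 and 65.8 CPM in LILRB4+/+ SCG2-/-, 36.0, 45.3 and 60.9 CPM in LILRB4+/+ and 72.0, 120 and 96.8 CPM in WT libraries. Both the LILRB4+/+ and the WT values spread widely but do not overlap. Its mean in LILRB4+/+ was 0.493 times that in WT (log2 fold change -1.02, SE 0.22, edgeR adjusted p = 0.0428). Cdc20, the activator of the anaphase-promoting complex and the highest of this role by FPKM, stood at -0.75 (edgeR adjusted p = 0.0731), and Cdca5, which encodes the cohesin protector sororin, at -0.71. The separase gene Espl1 stood at -0.41. Pttg1, which encodes securin, the separase inhibitor, was the gene nearest to 0 of all 52. It stood at 34.3, 25.5 and 23.8 CPM in LILRB4+/+ SCG2-/-, 28.1, 17.0 and 30.2 CPM in LILRB4+/+ and 25.6, 28.4 and 21.3 CPM in WT libraries, and all groups overlap.

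No centromere or kinetochore gene passed of 8. Nuf2, Ndc80, Spc24 and Spc25, the 4 subunits of the NDC80 complex that grips microtubules, stood at log2 fold changes of -0.77, -0.62, -0.70 and -0.66 (edgeR adjusted p = 0.0639 to 0.176). Knstrn, which encodes kinastrin, stood at -0.59. Cenpf and the motor gene Cenpe stood at -0.66 and -0.36 with standard errors of 0.28 and 0.27, wide beside those of other genes. Cenpa, the centromeric histone H3 variant and the highest of this role by FPKM, had a log2 fold change of 0.03 (SE 0.24). It stood at 133, 143 and 165 CPM in LILRB4+/+ SCG2-/-, 139, 67.6 and 102 CPM in LILRB4+/+ and 121, 97.04 and 83.5 CPM in WT libraries. The LILRB4+/+ values enclose all the WT values, and LILRB4+/+ SCG2-/- lies above WT.

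Of 8 kinesins 2 fell. Kif2c, which encodes the microtubule depolymerase MCAK, stood at 24.2, 23.1 and 21.8 CPM in LILRB4+/+ SCG2-/-, 16.6, 22.1 and 19.0 CPM in LILRB4+/+ and 28.2, 36.1 and 41.5 CPM in WT libraries (LILRB4+/+ against WT log2 fold change -0.87, SE 0.18, edgeR adjusted p = 0.0360). All WT values lie above the rest. Kif22, a chromosome-arm motor, stood at 32.9, 32.2 and 40.2 CPM in LILRB4+/+ SCG2-/-, 21.2, 28.0 and 28.8 CPM in LILRB4+/+ and 42.1, 41.6 and 46.7 CPM in WT libraries, with no overlap between any 2 groups. It fell by 0.74 in LILRB4+/+ against WT (SE 0.16, edgeR adjusted p = 0.0447). Kif20a, a motor of the central spindle, did not pass, at -0.74 (edgeR adjusted p = 0.0892). Kif11, the motor that separates spindle poles and the highest kinesin by FPKM, stood at -0.45, beside -0.48 for Kif15, -0.47 for Kif4 and -0.44 for Kif20b. The kinesin nearest to 0 was Kif23, of the centralspindlin complex, at -0.19.

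Of 6 genes for proteins on spindle microtubules 3 fell, and 1 stood apart. Nusap1, which encodes a microtubule bundler, stood at 35.7, 34.1 and 46.1 CPM in LILRB4+/+ SCG2-/-, 24.6, 32.4 and 30 CPM in LILRB4+/+ and 40.3, 63.6 and 60.6 CPM in WT libraries (LILRB4+/+ against WT log2 fold change -0.92, SE 0.20, edgeR adjusted p = 0.0447). LILRB4+/+ lies below both other groups, which overlap. Ckap2, which encodes a spindle-associated protein, stood at 30.3, 29.0 and 38.8 CPM in LILRB4+/+ SCG2-/-, 25.4, 26.6 and 25.8 CPM in LILRB4+/+ and 39.2, 41.6 and 47.8 CPM in WT libraries (LILRB4+/+ against WT log2 fold change -0.73, SE 0.15, edgeR adjusted p = 0.0409). The LILRB4+/+ values are tightly grouped and below all others.

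Prc1, which encodes the midzone bundler of antiparallel microtubules, stood at 50.8, 53.4 and 65.2 CPM in LILRB4+/+ SCG2-/-, 35.8, 43.1 and 37.8 CPM in LILRB4+/+ and 60.1, 56.0 and 73.3 CPM in WT libraries. LILRB4+/+ SCG2-/- and WT overlap, and LILRB4+/+ lies below both. It fell by 0.70 in LILRB4+/+ against WT (SE 0.16, edgeR adjusted p = 0.0491). Tpx2, which encodes the activator of Aurora A on the spindle, and Hmmr, a spindle protein gene, were not past the threshold, at -0.61 and -0.86 (edgeR adjusted p = 0.0550 and 0.107).

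Ckap2l, a relative of Ckap2 that is also needed on the spindle, went the other way. It stood at 40.1, 41.1 and 43.8 CPM in LILRB4+/+ SCG2-/-, 59.7, 70.0 and 66.1 CPM in LILRB4+/+ and 45.4, 37.6 and 49.9 CPM in WT libraries. LILRB4+/+ values lie above all 6 others. The fold change in LILRB4+/+ against WT was 1.47 (log2 0.56, SE 0.14), which did not pass edgeR's test (adjusted p = 0.0638) and passed DESeq2's (adjusted p = 0.00816). Ckap2l (chromosome 2, 129268210 to 129297212, minus strand) lies downstream of Il1a, which encodes the cytokine interleukin 1 alpha on the same strand, with 2397 bases between them. Il1a stood at 520.1, 807.7 and 311.6 CPM in LILRB4+/+ SCG2-/-, 1051, 932.5 and 1473 CPM in LILRB4+/+ and 324.6, 333.3 and 209.6 CPM in WT libraries. Its levels are also highest in all 3 LILRB4+/+ libraries. It rose in LILRB4+/+ against WT (log2 fold change 1.99, SE 0.34, edgeR adjusted p = 0.0269). Its part in the Ckap2l counts was not tested.

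**Figure D3:**
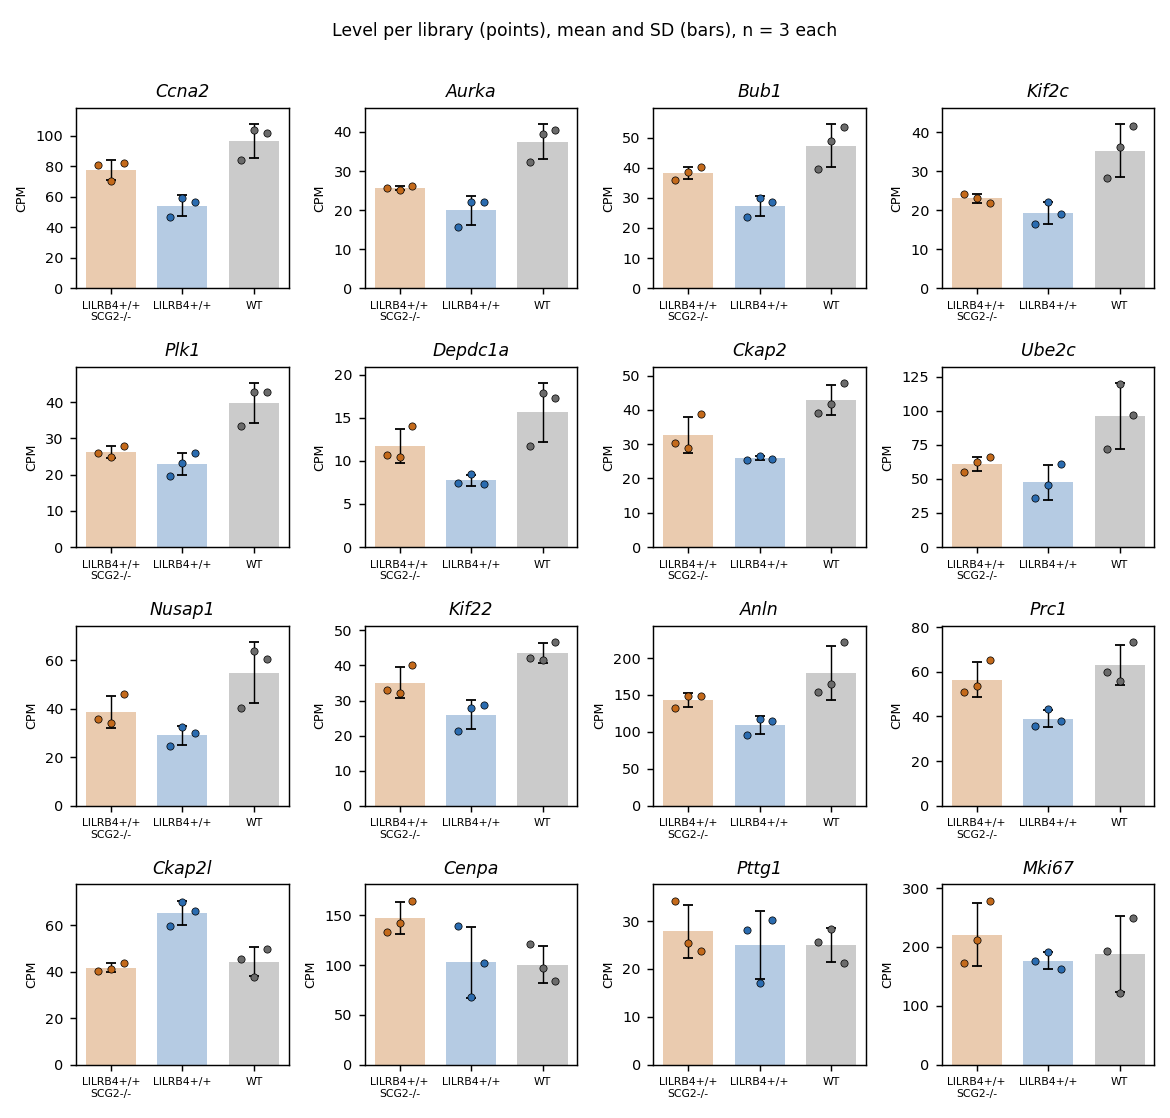
CPM of the 12 genes that fell in LILRB4+/+ against WT and of Ckap2l, Cenpa, Pttg1 and Mki67, in LILRB4+/+ SCG2-/-, LILRB4+/+ and WT libraries. Points are libraries, bars are means and error bars are SD (n = 3 each). In the 12 genes all LILRB4+/+ points lie below all WT points, and in Ckap2l they lie above.

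Of the cytokinesis genes Anln, which encodes the cleavage furrow scaffold anillin, fell. It stood at 133, 148 and 149 CPM in LILRB4+/+ SCG2-/-, 95.5, 117 and 115 CPM in LILRB4+/+ and 154, 165 and 222 CPM in WT libraries, so that the 3 groups do not overlap (LILRB4+/+ against WT log2 fold change -0.72, SE 0.16, edgeR adjusted p = 0.0473). Ect2, the RhoA activator of the furrow, stood at -0.60 (edgeR adjusted p = 0.0731). Depdc1a, whose product has been described as a mitotic and transcriptional regulator, stood at 10.7, 10.4 and 14.0 CPM in LILRB4+/+ SCG2-/-, 7.44, 8.46 and 7.31 CPM in LILRB4+/+ and 11.7, 17.9 and 17.3 CPM in WT libraries. It is among the lowest of the 52 in CPM, and LILRB4+/+ lies below all others. Its fold change in LILRB4+/+ against WT was 0.495 (log2 -1.01, SE 0.21, edgeR adjusted p = 0.0404).

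Chromosome structure genes had the smallest differences of the roles with more than 1 gene, with a median log2 fold change of -0.42 and 0 of 8 past the test. The condensin genes Ncaph, Ncapd2, Smc2, Ncapg and Smc4 stood at -0.57, -0.43, -0.42, -0.34 and -0.20, the last of them the highest by FPKM. Top2a, which encodes the topoisomerase that untangles sister chromatids, stood at -0.55, and Cdca2, which encodes a phosphatase anchor on chromatin, at -0.51. Mki67, which encodes the proliferation marker Ki-67, stood at 173, 212 and 279 CPM in LILRB4+/+ SCG2-/-, 175, 192 and 163 CPM in LILRB4+/+ and 194, 121 and 249 CPM in WT libraries. The WT values enclose all the LILRB4+/+ values, and the log2 fold change was -0.09 (SE 0.25, edgeR adjusted p = 0.853). Without WT replicate 2 it was -0.30, and without WT replicate 3 it was 0.17.

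The number of genes that fell in LILRB4+/+ against WT rested on the test and on single libraries. It was 0 without WT replicate 2, WT replicate 3, LILRB4+/+ replicate 1, LILRB4+/+ replicate 3 or LILRB4+/+ SCG2-/- replicate 2, which shares the estimate of spread. In those 5 fits 0 or 1 of all 9877 genes fell. It was 2 without WT replicate 1 (5 of all genes), 4 without LILRB4+/+ SCG2-/- replicate 1 (29 of all genes), 5 without LILRB4+/+ SCG2-/- replicate 3 (30 of all genes) and 17 without LILRB4+/+ replicate 2 (148 of all genes). The number of the 52 that fell thus moved with the number of all genes that fell, 51 with every library in. DESeq2 called 29 of the 52 lower and 1, Ckap2l, higher, against 3.16% of all genes lower and 6.2% higher, and these 29 hold all 12. The counts recovered from FPKM, with 15743 genes tested, gave 2 lower, Aurka and Ccna2, and 0 higher, against 0.0572% of all genes lower and 0.813% higher. The median log2 fold change moved less, between -0.74 and -0.49 over the libraries left out.

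The libraries of a group did not move as 1 block. LILRB4+/+ replicate 1 was the lowest of the 9 libraries for 41 of the 52 genes, and WT replicate 3 was the highest for 32 and WT replicate 2 for 14. The 52 genes together made up 2733, 2780 and 3335 CPM in LILRB4+/+ SCG2-/-, 2003, 2369 and 2201 in LILRB4+/+ and 3060, 3085 and 4059 in WT libraries (recovered counts, scaled to all genes). LILRB4+/+ SCG2-/- and WT overlap in this sum, and LILRB4+/+ lies below both.

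**Figure D4:**
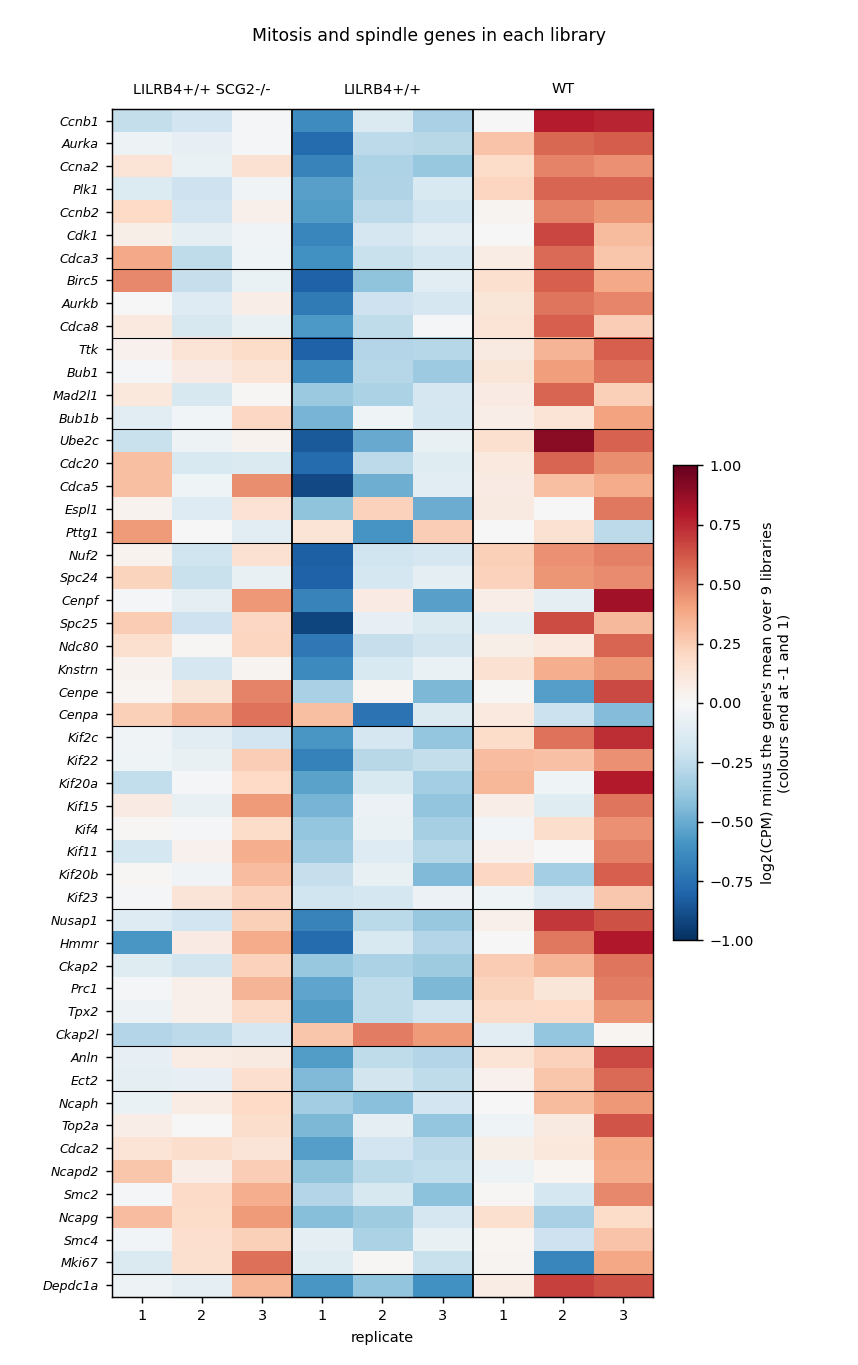
Log2(CPM) of each gene minus its mean over 9 libraries, with genes in rows by role and replicates 1 to 3 of LILRB4+/+ SCG2-/-, LILRB4+/+ and WT in columns. LILRB4+/+ replicate 1 is the lowest library for 41 of 52 genes. The lowest is LILRB4+/+ replicate 2 for 4 genes, LILRB4+/+ replicate 3 for 4 and WT replicate 2 for 3 (Ckap2l, Cenpe and Mki67).

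WT replicates 2 and 3 also differed by gene length. Of the 52 genes 36 were lower in WT replicate 2 than in WT replicate 3, with log2 ratios between -1.21 for Cenpe and 0.42 for Pttg1. Long genes such as Cenpf (15433 bases, log2 ratio -0.93), Mki67 (10061 bases, -1.04) and Cenpe (8620 bases) were far lower in WT replicate 2, while short ones such as Ube2c (2600 bases, 0.31) and Cdc20 (1868 bases, 0.12) were higher. Exceptions included Mad2l1 (8390 bases, 0.34), Cdca8 (5177 bases, 0.35) and Kif20a (3796 bases, -0.83). Across the 52 genes the log2 ratio and log2 length had a Pearson r of -0.62 and a Spearman rho of -0.64, and across all 9877 genes tested r was -0.57 and rho -0.60. These points share the same 2 libraries. For WT replicate 2 over WT replicate 1, r was -0.52 and rho -0.54 across the 52 genes. For WT replicate 3 over WT replicate 1, both were 0.23. The log2 fold change in LILRB4+/+ against WT and log2 length had an r of 0.23 and a rho of 0.45 across the 52 genes, and an r of 0.16 and a rho of 0.22 across all genes. In LILRB4+/+ SCG2-/- against WT, r was 0.37 and rho 0.45 across the 52 genes, and 0.26 and 0.36 across all genes. The part of length in the results by role was not tested.

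**Figure D5:**
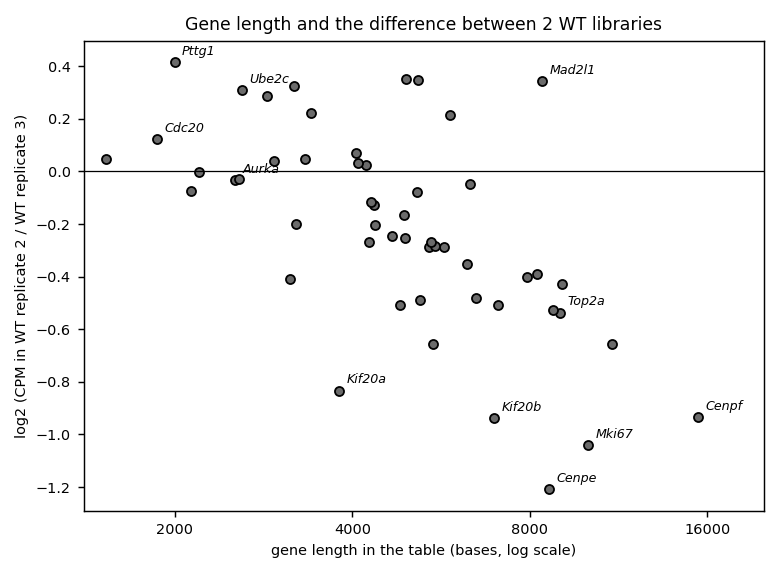
Log2 ratio of CPM in WT replicate 2 to WT replicate 3 against gene length in the table (log scale), 1 point for each of the 52 genes. The ratio is lowest for the long genes Cenpe, Mki67, Kif20b and Cenpf and highest for Pttg1 (Spearman rho = -0.64).

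Comparing LILRB4+/+ SCG2-/- with LILRB4+/+ asks what the loss of SCG2 changes. By edgeR's quasi-likelihood test 0 of the 52 genes passed in either direction, as was so for 0% of all genes tested. Before adjustment, 16 of the 52 were higher and 1 was lower at p under 0.05, against 4.88% and 6.18% of all genes. DESeq2 called 0 higher and 1, Ckap2l, lower (log2 fold change -0.68, adjusted p = 0.00590), against 0.132% of all genes higher and 1.64% lower. Both comparisons described so far use the same LILRB4+/+ libraries.

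Log2 fold changes in LILRB4+/+ SCG2-/- against LILRB4+/+ were above 0 for 51 of the 52 genes and below 0 for 1, against 44.4% of all genes below 0, with a median of 0.37 against 0.03 over all genes. Every LILRB4+/+ SCG2-/- library lay above every LILRB4+/+ library for 29 of the 52, against 9.86% of all genes. Cdca5, the sororin gene, had the largest log2 fold change, 0.71 (SE 0.22, edgeR adjusted p = 0.318), at 20.1, 15.9 and 22.5 CPM in LILRB4+/+ SCG2-/- and 8.74, 11.6 and 15.2 CPM in LILRB4+/+ libraries. These groups do not overlap, by a narrow margin. The condensin gene Ncapg followed at 0.62, with 34.0, 31.2 and 36.9 CPM in LILRB4+/+ SCG2-/- and 20.5, 21.4 and 24.4 CPM in LILRB4+/+ libraries (SE 0.17, edgeR adjusted p = 0.263). Its LILRB4+/+ SCG2-/- values are all above those of LILRB4+/+.

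In chromosome structure genes every LILRB4+/+ SCG2-/- library lay above every LILRB4+/+ library for 7 of 8, against 9.86% of all genes. The exception was Mki67, and 0 of the 8 passed (lowest edgeR adjusted p = 0.263). The 12 genes lower in LILRB4+/+ than in WT were chosen for low values in the same LILRB4+/+ libraries, which favours values above 0 here. Of these 12, Depdc1a was highest, at 0.60, followed by Prc1 at 0.54, Ccna2 at 0.52 and Bub1 at 0.48, while Plk1 stood at 0.20 and Kif2c at 0.26. None of the 12 passed (edgeR adjusted p = 0.299 to 0.700). Ckap2l was the 1 gene below 0, at -0.65 (SE 0.14, edgeR adjusted p = 0.235), with every LILRB4+/+ SCG2-/- library below every LILRB4+/+ library, as for 8.7% of all genes. For Il1a the same comparison gave -1.08, not past the threshold (edgeR adjusted p = 0.318).

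In LILRB4+/+ SCG2-/- against WT 0 of the 52 passed in either direction, as for 0% of all genes tested by edgeR's quasi-likelihood test, and DESeq2 called 0 of the 52, against 0.699% of all genes higher and 0.233% lower. Before adjustment, 8 were lower and 1, Cenpa, was higher at p under 0.05, against 6.11% and 8.47% of all genes. The median log2 fold change was -0.25, and 43 of 52 lay below 0, against 49.6% of all genes. Every LILRB4+/+ SCG2-/- library lay below every WT library for 15 of the 52, against 10.4% of all genes, and above for 1, Cenpa, against 13% of all genes. Ccnb1, Ube2c and Kif2c were farthest below 0, at -0.71 (SE 0.21), -0.66 (SE 0.22) and -0.61 (SE 0.18), each with an edgeR adjusted p = 0.317. Cenpa was farthest above, at 0.55 (SE 0.24, edgeR adjusted p = 0.334).

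Other genes of mitosis were also mostly lower in LILRB4+/+ against WT. Of 139 such genes with FPKM values, 121 were tested. The rest had no deposited counts, which may leave out genes low in LILRB4+/+. Of the 121, 4 fell and 0 rose, against 0.516% and 1.73% of all genes tested. Their median log2 fold change was -0.30, against -0.02 over all genes, and 103 of 121 lay below 0, against 52%. Cep55, an abscission gene, stood at 21.3 ± 1.85 CPM in LILRB4+/+ and 35.3 ± 0.717 CPM in WT libraries (SD, n = 3 each; log2 fold change -0.73, edgeR adjusted p = 0.0323). The mitotic kinase gene Melk, the checkpoint ATPase gene Trip13 and the CDK-activating phosphatase gene Cdc25b fell by 0.79, 0.78 and 0.62 (edgeR adjusted p = 0.0498, 0.0448 and 0.0448). When recovered counts of all genes were used, none of the 4 passed (edgeR adjusted p = 0.0532 to 0.0764). That fit tested 138 of the 139 genes, and 0 were lower and 0 higher. Of all genes in it, 0.0572% were lower and 0.813% higher. DESeq2 called 26 of the 121 lower and 0 higher, against 3.16% of all genes lower and 6.2% higher. Leaving out single libraries gave 0 to 9 lower by edgeR. The 9 came without LILRB4+/+ replicate 2, where 148 of all 9877 genes were lower, against 51 with every library in. In that fit 1 of the 121 was also higher, and more of all genes were higher than with every library in. The 4 highest of the rest by FPKM, Cks2, Ndel1, Rad21 and Ppp1cc, stood at -0.15, 0.13, -0.16 and 0.17 and did not pass. In LILRB4+/+ SCG2-/- against LILRB4+/+ and against WT 0 of 121 passed, as for 0% of all genes, with medians of 0.30 and -0.03. The 26 DNA replication genes summed to 1892 to 2031 CPM in LILRB4+/+ SCG2-/-, 1404 to 1684 in LILRB4+/+ and 2221 to 2616 in WT libraries, with no overlap between groups.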

How the data were processed

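Sorted M-MDSC RNA from 9 mouse tumour libraries was made into directional poly-A libraries, per the labels' protocols. The submitters' processing notes name HISAT2 2.0.5 and featureCounts 1.5.0-p3. The genome build, annotation and strand setting of counting were not given in the sources used here. The authors deposited raw counts for 9877 genes and FPKM values for 54532 genes. The deposited FPKM were turned back into reads with gene lengths and a scale for each library, and 100% of values came out whole (tolerance 0.01). These are called recovered counts. All 9876 protein-coding genes with 100 or more recovered counts in LILRB4+/+ replicates 1 and 3 were in the count table, so a gene low in LILRB4+/+ could be missing from it; no member was. The tables differed for 47 genes, no member among them. Coordinates matched GENCODE M21 (GRCm38) at both ends for 98.3% of shared genes and for 51 of the 52 members, all but Kif20a. Of the 52, 9 overlap a protein-coding gene on the other strand, among them Ccna2, Cdc20, Nusap1, Prc1 and Ube2c. Whether counting used strand is not given. A count of 0 allows up to 3 counts, at most 0.207 CPM, a limit for counting error only.

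Deposited counts were fitted with edgeR 4.0.16 in R 4.3.3 (filterByExpr at 10 counts, under which no gene dropped out; TMM; robust quasi-likelihood; all 9 libraries; two-sided; Benjamini-Hochberg over all genes tested, threshold 0.05). DESeq2 1.42.0, limma 3.58.1 on log2(FPKM + 1) and log2(FPKM + 0.1) for genes of mean FPKM of at least 1, and on log2(FPKM + 1) without that filter, recovered counts, 2-group fits, a replicate block and leaving out each library were alternatives. Each SE of an edgeR log2 fold change is its absolute value divided by the square root of the quasi-likelihood F statistic. Within a group, no pair of libraries shared the same count for more than 0.466% of genes. Members and lists were chosen with earlier results of these data known. Members past the threshold are given in every library; in each role the member of highest mean FPKM and the one nearest 0 are named; of other mitosis genes, those past the threshold and the 4 of highest mean FPKM. Mki67, Ckap2l, Cenpa and further members were described after their values were seen.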

Additional observations from a re-analysis of the deposited data

How the results depend on the processing

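In LILRB4+/+ against WT, the 12 genes lower became 29 with DESeq2 (1 higher), 2 with recovered counts of all genes, and 0 with limma on FPKM at either pseudocount or without a filter, in a fit of only the 2 groups, or with the replicate block. Of all genes, 51 became 312 with DESeq2, 9 with recovered counts, 1 to 11 with limma, 3 with the 2 groups and 0 with the block. With recovered counts of the same genes 8 were lower. Leaving out single libraries gave 0 to 17 lower (0 to 148 of all genes) and 0 higher, with medians of -0.74 to -0.49. In LILRB4+/+ SCG2-/- against LILRB4+/+, DESeq2 called 1 lower, no other setting called any, and medians ran between 0.26 and 0.43 with a library left out. In LILRB4+/+ SCG2-/- against WT no setting called any, and medians ran between -0.37 and -0.16. Every one of the 52 genes kept its sign where it had passed a test, and 13, 2 and 25 values of genes that passed no test changed sign in the 3 comparisons. Deviations from the group mean correlated at -0.544 to 0.66 between same-numbered libraries. For LILRB4+/+ and WT these values were 0.66, 0.539 and -0.455 for replicates 1 to 3. Unlike-numbered LILRB4+/+ and WT libraries ran between -0.707 and 0.351. Deviations within a group depend on each other, so these values cannot tell whether the numbers pair libraries. The cause of the calls lost under the block was not tested. Every gene had reads in every library, so no value is limited by a count of 0. For several genes in LILRB4+/+ against WT, among them Mki67, Cenpa, Cenpe, Cenpf and Top2a, WT libraries differ by more than the 2 group means do.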
